A study of Canis lupus familiaris with 12 samples.

Results

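PECAM1, KDR and VWF are 3 genes by which endothelial cells are commonly recognised, and their mRNA was followed here in canine hemangiosarcoma cells grown with or without glucose. The genes were chosen by name and not by their values, through the identifiers given to their qPCR primers in the study, and they are 3 of the 30951 genes listed (ENSCAFG00000011740 for PECAM1, ENSCAFG00000002079 for KDR and ENSCAFG00000015228 for VWF). Hemangiosarcoma is a malignant tumour of dogs whose cells resemble the lining of blood vessels. One cell line, HU-HSA-2, came from the splenic tumour of 1 dog, and the other, HU-HSA-3, from that of another. Each line was kept for 48 h in serum-containing DMEM with 25 mM glucose or with 0 mM glucose, with 3 libraries of poly(A) RNA in each of the 4 groups and 12 in all. The cells carried no introduced allele, and the groups at 25 mM served as controls within each line. One line stood for each tumour, so a difference between the lines cannot be told apart from a difference between the dogs, the derivation of the lines or their handling.

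PECAM1 (also known as CD31) is an adhesion molecule at the junctions between endothelial cells. KDR (also known as VEGFR2) is the main signalling receptor for vascular endothelial growth factor on these cells. VWF is the large glycoprotein that endothelial cells store in Weibel-Palade bodies and release to capture platelets at sites of vessel injury. A cell can express some of these genes and not others, and VWF in particular varies between vascular beds.

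The libraries held between 10406166 and 13405159 expected counts, and no 2 libraries held the same values. The source materials describe triplicate cultures but the labels do not say that the libraries came from separate passages or days, so the p-values measure the spread between these libraries, which may be partly technical. HU-HSA-3 0 mM replicate 1 stood apart from its group: the SD of its log2 differences to its 2 mates averaged 0.297 over genes, against 0.113 to 0.202 in the other libraries. Model results at 0 mM in this line are therefore also given without it. Levels are given as CPM (counts per 1000000 counts of a library) scaled for library composition with TMM factors (trimmed mean of M-values), and levels of different genes are compared as TPM, which account for gene length.

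PECAM1 was the most abundant of the markers in each of the 12 libraries. In HU-HSA-2 with 25 mM glucose it stood at 2207, 2191 and 2188 CPM, and without glucose at 1968, 2098 and 2078 CPM. In HU-HSA-3 with glucose it stood at 945, 997 and 989 CPM, and without glucose at 840, 923 and 946 CPM. Every HU-HSA-2 library was therefore above every HU-HSA-3 library, and the lowest glucose-free HU-HSA-2 library (1968 CPM) remained above the highest HU-HSA-3 library with glucose (997 CPM). The group means were 2195 ± 10.5, 2048 ± 69.9, 977 ± 28.2 and 903 ± 55.5 CPM (SD, n = 3), in the same order of groups. On the TPM scale PECAM1 ranked between 123 and 131 among all genes in HU-HSA-2, whereas its rank in HU-HSA-3 lay between 305 and 438. With 7803 to 30470 counts in each library, its counting error was small. In HU-HSA-2 with glucose the coefficient of variation between libraries was 0.478%, no larger than the 0.606% that counting alone gives.

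KDR was expressed at an intermediate level in both lines. In HU-HSA-2 it stood at 264, 271 and 283 CPM with glucose and at 238, 239 and 225 CPM without glucose. In HU-HSA-3 it stood at 172, 190 and 195 CPM with glucose and at 139, 167 and 175 CPM without glucose. The order of the 4 groups was the same as for PECAM1. The glucose-free libraries lay wholly below those with glucose in HU-HSA-2 but overlapped with them in HU-HSA-3, where the lowest of the 3 glucose-free values belonged to the library that stood apart. Group means were 273 ± 9.44, 234 ± 7.89, 186 ± 12 and 160 ± 19.0 CPM (SD, n = 3). Among genes with a TPM above 0, KDR was at percentiles 82.0 to 85.4 in HU-HSA-2, against 69.5 to 76.1 in HU-HSA-3.

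VWF was close to the lower limit of what these libraries could measure. Its counts in HU-HSA-2 were 14, 47 and 40 with glucose and 43, 42 and 38 without glucose. In HU-HSA-3 the counts were 9, 12 and 6 with glucose and 11, 3 and 16 without glucose. The first HU-HSA-2 library with glucose was thus as low as the HU-HSA-3 libraries, and its exact 95% Poisson interval (7.65 to 23.5 counts) did not reach those of its mates (34.5 to 62.5 and 28.6 to 54.5). Summed over the 3 libraries of a group, VWF gave 29.3 counts per 10000000 in HU-HSA-2 with glucose (95% Poisson interval 23.9 to 35.6) and 31.9 without glucose (26.5 to 38.0). In HU-HSA-3 it gave 8.13 (5.35 to 11.8) and 8.71 (5.88 to 12.4), and neither interval reached those of HU-HSA-2. These intervals cover counting error only. The mean level was 0.477 TPM with and 0.520 TPM without glucose in HU-HSA-2, against 0.170 and 0.210 TPM in HU-HSA-3. In all 12 libraries the TPM of PECAM1 exceeded that of KDR, which exceeded that of VWF.

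**Figure D1:**
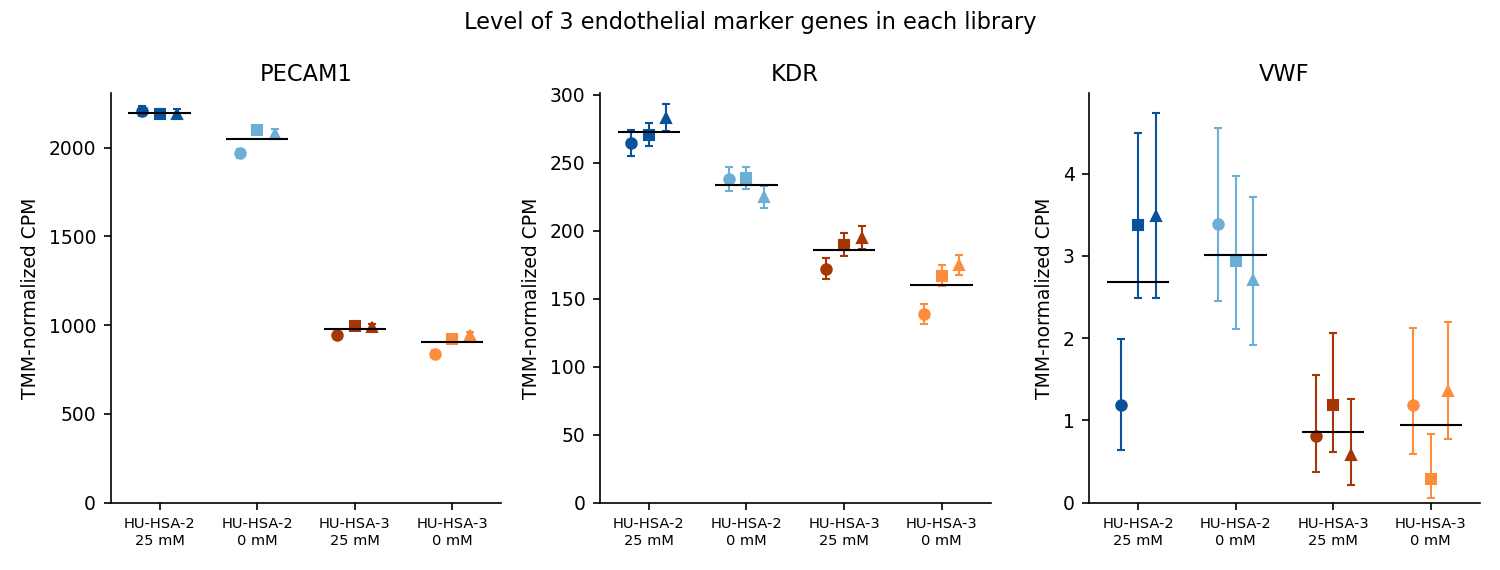
TMM-normalized CPM (linear axes from 0) of PECAM1, KDR and VWF in each of the 12 libraries, with circles, squares and triangles for replicates 1, 2 and 3, bars for the exact 95% Poisson interval of the count and black lines for group means. PECAM1 and KDR of every HU-HSA-2 library lie above those of every HU-HSA-3 library, and VWF in HU-HSA-2 25 mM replicate 1 lies among the HU-HSA-3 libraries.

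The first comparison asked whether the lines differed in these markers at each glucose level, in a fit of all 12 libraries with the quasi-likelihood F-test of edgeR and Benjamini-Hochberg adjustment over 12233 genes. All 3 markers passed the filter on low counts, and all 3 were lower in HU-HSA-3 at both glucose levels. The lines differed widely, since 74.3% of the genes tested passed the threshold at 25 mM (38.2% as lower in HU-HSA-3) and 73.2% at 0 mM (37.1% as lower). A call of a marker is therefore to be read by its size. The median log2 difference over all genes was -0.03 at 25 mM and -0.01 at 0 mM. The median of the 3 markers, -1.17 and -1.18, is the value of PECAM1 alone.

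With HU-HSA-2 as the baseline, PECAM1 was 2.25-fold lower in HU-HSA-3 at 25 mM glucose (95% interval 2.06 to 2.45, log2 difference -1.17, SE 0.059, edgeR adjusted p = 1.88e-11). At 0 mM the difference was 2.27-fold (2.08 to 2.47, adjusted p = 1.66e-11 by the same edgeR test). Of all genes tested at 25 mM, 24.8% differed by more than PECAM1. KDR was 1.47-fold lower at 25 mM (1.31 to 1.65, log2 difference -0.56, SE 0.079, edgeR adjusted p = 7.20e-06) and 1.46-fold lower at 0 mM (1.30 to 1.64, edgeR adjusted p = 9.30e-06). The difference of KDR was smaller than that of 52.5% of all genes at 25 mM, and so was not large for this pair of lines.

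VWF showed the largest fitted difference of the 3 markers and the widest interval. It was 3.15-fold lower in HU-HSA-3 at 25 mM (1.61 to 6.16, log2 difference -1.65, SE 0.458, edgeR adjusted p = 0.00380). At that glucose level the libraries of the lines met, since the lowest HU-HSA-2 library and the highest HU-HSA-3 library both stood at 1.18 CPM. At 0 mM the lines did not overlap, and VWF was 3.16-fold lower in HU-HSA-3 (1.67 to 6.01, edgeR adjusted p = 0.00266). Without HU-HSA-3 0 mM replicate 1 the log2 differences at 0 mM were -1.13 for PECAM1, -0.45 for KDR and -1.82 for VWF, all still called by edgeR. An exact two-sided permutation test of the line labels within glucose levels (400 arrangements, smallest possible p = 0.005) gave p = 0.005 for PECAM1, p = 0.005 for KDR and p = 0.01 for VWF. These p-values are not adjusted. With TMM scaling, Benjamini-Hochberg adjustment over the 3 markers and 2 factors (line and glucose) gave a permutation adjusted p of 0.012 for each marker. Each marker had 6 such tests, of line and of glucose under each of 3 scalings. For VWF the line test gave an exact permutation p of 0.005 under the other 2 scalings (upper quartile and 6 reference genes). In bulk RNA, fewer cells that express a gene and less RNA of that gene in each cell cannot be told apart.

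**Figure D2:**
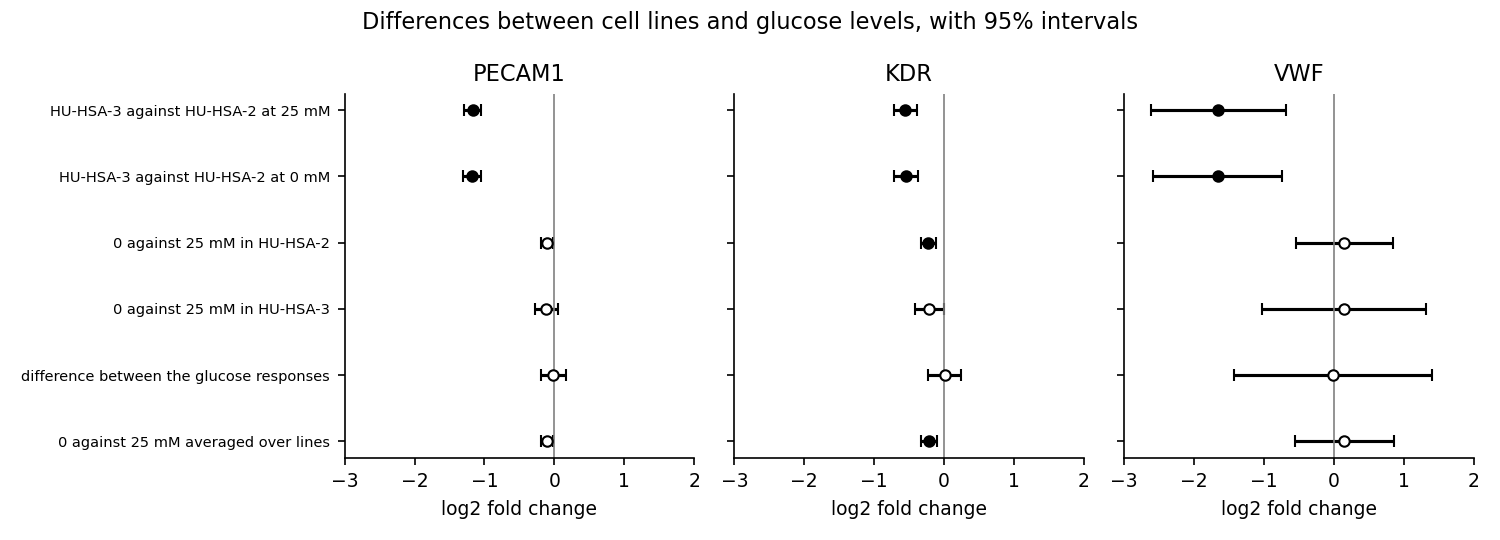
Log2 fold changes with 95% intervals from edgeR's quasi-likelihood fits for each marker, one row per comparison, with filled points where the Benjamini-Hochberg adjusted p was under 0.05. The line differences lie at -1.17 and -1.18 for PECAM1 and at -0.56 and -0.55 for KDR, and the glucose changes lie nearer 0, past the threshold for KDR in HU-HSA-2 and averaged over lines.

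The second comparison asked what 48 h without glucose did to the markers in each line. In HU-HSA-2, KDR fell by 14.4% (95% interval 7.83% to 20.4% lower, log2 change -0.22, SE 0.049), and this passed the same edgeR test, adjusted by Benjamini-Hochberg over 12035 genes (adjusted p = 0.00898). It was the 1 marker of 3 called in this comparison, in which 13.2% of all genes were called and 5.70% were called lower. The genes called went from 1583 to 920 without HU-HSA-2 25 mM replicate 2 and to 907 without 25 mM replicate 3. The call was lost (adjusted p = 0.0665 by edgeR) without HU-HSA-2 25 mM replicate 3, the highest KDR library, although the change was still -0.20. It was also lost when the spread was estimated from all 12 libraries (edgeR adjusted p = 0.0902) and by limma on log2(TPM + 1) (adjusted p = 0.124).

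PECAM1 in HU-HSA-2 was 6.87% lower without glucose (1.35% to 12.1%, log2 change -0.10, SE 0.039), and its 3 glucose-free libraries were below its 3 libraries with glucose. It did not pass the threshold over all genes (unadjusted p = 0.0192 and adjusted p = 0.0989 by edgeR). Scaled by 6 reference genes PECAM1 was at -0.16 (edgeR adjusted p = 0.1003), and without B2M in that scale at -0.13 (edgeR adjusted p = 0.341). VWF in HU-HSA-2 had a log2 change of 0.15 with an interval from -0.55 to 0.85 (edgeR adjusted p = 0.807). That interval ran from 0.685-fold to 1.80-fold. Without HU-HSA-2 25 mM replicate 1, the library with 14 counts, the value became -0.19, so the sign of the VWF change rested on that library.

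In HU-HSA-3, none of the 3 markers passed edgeR's test of 0 against 25 mM, in which 5.65% of 11089 genes were called. That background changed with the libraries included. The genes called went from 626 to 2027 of 11191 without HU-HSA-3 0 mM replicate 1. They fell to 319 and 431 without 0 mM replicates 2 and 3, and to 236, 256 and 231 without 25 mM replicates 1, 2 and 3. These fits also had 1 library fewer than the main fit. KDR was 13.7% lower without glucose (95% interval 0.193% to 25.4% lower, log2 change -0.21, SE 0.093, unadjusted p = 0.0476 and adjusted p = 0.221 by edgeR), and this was the 1 marker with an unadjusted p under 0.05. PECAM1 was 7.56% lower (log2 change -0.11, 95% interval -0.27 to 0.05, edgeR adjusted p = 0.380). The glucose-free and glucose-fed libraries overlapped for both genes. Leaving out HU-HSA-3 0 mM replicate 1, which stood apart, brought KDR to -0.12 and PECAM1 to -0.07 (edgeR adjusted p = 0.152 and 0.333). DESeq2 and limma called neither gene in this line. Scaled by 6 reference genes the changes were larger, at -0.35 for KDR and -0.25 for PECAM1 (edgeR adjusted p = 0.0753 and 0.0898), and without B2M in that scale they were -0.28 and -0.18 (0.121 and 0.192). Limma on log2(TPM + 1) put PECAM1 at -0.19. VWF had a log2 change of 0.15 in HU-HSA-3, with an interval from -1.03 to 1.32 (edgeR adjusted p = 0.899), that is from 0.489-fold to 2.50-fold. Its sign turned without 0 mM replicate 1 (-0.02), 0 mM replicate 3 (-0.27) or 25 mM replicate 3 (-0.07).

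**Figure D3:**
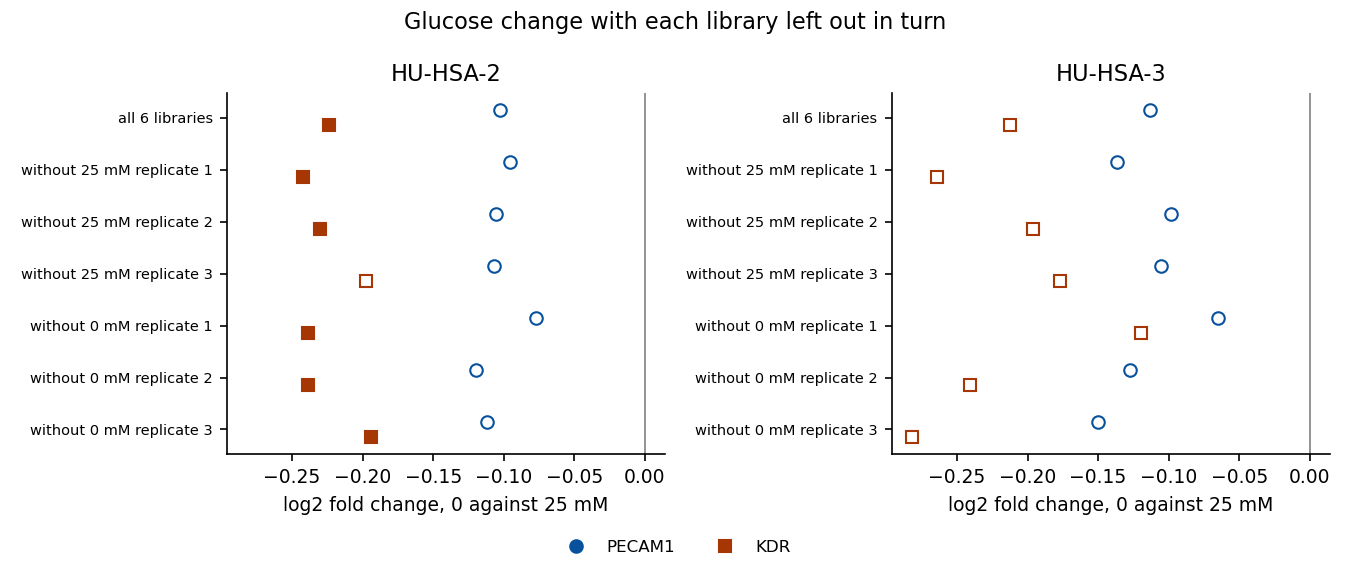
Log2 change of PECAM1 (circles) and KDR (squares) without glucose in each line, for all 6 libraries and with each library left out in turn, filled where edgeR's adjusted p was under 0.05. All values lie below 0, KDR in HU-HSA-2 loses its call without 25 mM replicate 3 (-0.20), and KDR in HU-HSA-3 moves to -0.12 without 0 mM replicate 1.

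The glucose changes of the lines were close in value. The difference between them (HU-HSA-3 minus HU-HSA-2) was -0.01 on the log2 scale for PECAM1 (95% interval -0.19 to 0.16), 0.01 for KDR (-0.23 to 0.24) and -0.01 for VWF (-1.42 to 1.40). None passed edgeR's test of the difference (adjusted p = 0.963, 0.985 and 0.9999, unadjusted p = 0.873, 0.935 and 0.989), in which 4.73% of 12233 genes were called. Without HU-HSA-3 0 mM replicate 1 these differences were 0.03, 0.10 and -0.17, and none was called by edgeR. The intervals of all 3 markers are as wide as their glucose changes or wider, so they do not show that the lines responded alike.

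Averaged over the lines, KDR fell by 13.9% without glucose (95% interval 6.64% to 20.7% lower, edgeR adjusted p = 0.0155). It was again the 1 marker of 3 called, against 14.0% of all genes called and 5.62% called lower. PECAM1 was 7.14% lower (1.33% to 12.6%, edgeR adjusted p = 0.0980) and VWF had a log2 change of 0.15 (-0.56 to 0.86, edgeR adjusted p = 0.818). Without HU-HSA-3 0 mM replicate 1 the KDR change was -0.18 (edgeR adjusted p = 0.00388). DESeq2 on the counts also called KDR (adjusted p = 0.00267). Limma on log2(TPM + 1) gave -0.26 and did not call it (adjusted p = 0.0559), whereas the same limma fit with a mean-variance trend, added after the first had been seen, did (adjusted p = 0.0385). PECAM1 was called by DESeq2 (adjusted p = 0.0259) and, in edgeR, without HU-HSA-3 0 mM replicate 1 (-0.09, adjusted p = 0.0338). It was also called by edgeR when scaled by 6 reference genes (-0.21, adjusted p = 0.0107), but not when B2M, which itself rose by 0.38 (edgeR adjusted p = 0.00478), was left out of that scale (-0.15, adjusted p = 0.0676). VWF was at 0.06 without HU-HSA-3 0 mM replicate 1. An exact two-sided permutation test of the glucose labels within lines (400 arrangements) gave p = 0.01 for PECAM1, p = 0.01 for KDR and p = 0.755 for VWF, unadjusted. Adjusted over the 3 markers and 2 factors, the permutation p-values were 0.012, 0.012 and 0.755.

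Because a ratio of 2 genes within a library does not depend on how libraries are scaled, PECAM1 was also set against KDR. The TPM ratio of PECAM1 to KDR was 15.6, 15.1 and 14.4 in HU-HSA-2 with glucose and 15.4, 16.4 and 17.3 without glucose. In HU-HSA-3 it was 10.3, 9.93 and 9.55 with glucose and 11.3, 10.4 and 10.2 without glucose. The ratio was thus higher in every HU-HSA-2 library, while libraries with and without glucose overlapped in both lines. The log2 ratio of counts was 0.62 lower in HU-HSA-3 (exact permutation p = 0.005, two-sided, within glucose levels), so PECAM1 differed between the lines by more than KDR did. The log2 ratio was 0.11 higher without glucose (exact permutation p = 0.025, within lines). The highest TPM ratio in HU-HSA-3 (11.3) belonged to 0 mM replicate 1, which stood apart, and the ratio was not tested without that library. The line and glucose tests make up the family of ratio tests, and the p-values above are not adjusted. Adjusted over these 2 tests by Benjamini-Hochberg, the permutation p-values were 0.01 for line and 0.025 for glucose.

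**Figure D4:**
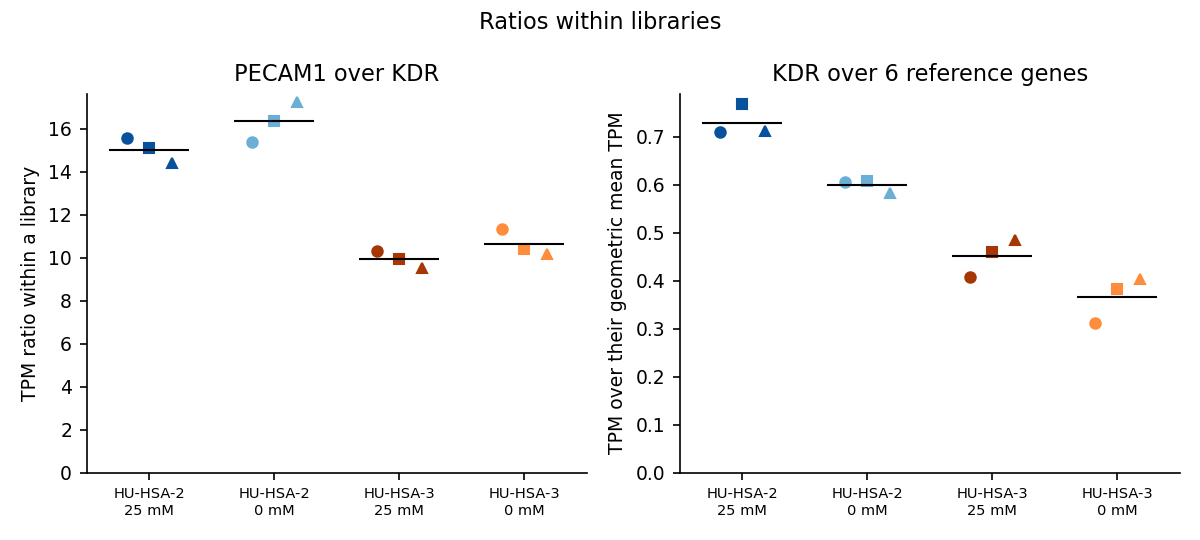
Left, TPM of PECAM1 over TPM of KDR within each library, and right, TPM of KDR over the geometric mean TPM of 6 reference genes, both on linear axes from 0, with circles, squares and triangles for replicates 1, 2 and 3 and lines for group means. The PECAM1 to KDR ratio averages 15.04 with and 16.4 without glucose in HU-HSA-2, against 9.93 and 10.6 in HU-HSA-3.

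The 6 genes for which the study lists reference primers were examined as a second scale. KDR over their geometric mean was 0.730 ± 0.033 with glucose and 0.599 ± 0.014 without glucose in HU-HSA-2, against 0.451 ± 0.039 and 0.367 ± 0.047 for HU-HSA-3 (TPM ratio, SD, n = 3). This scale was not free of change itself. Ribosomal protein genes such as RPL32 often have near-identical copies that can share reads, and whether this touched its counts was not tested. Between the lines at 25 mM, edgeR's test called B2M (log2 difference -1.997) and RPL32 (log2 difference 2.44), and B2M rose without glucose in HU-HSA-2 by 0.25 (edgeR adjusted p = 0.00617). With B2M left out, RPL32 stayed in the scale. The line difference at 25 mM then became -1.63 for PECAM1 and -1.01 for KDR, both still called by edgeR. How far these values rested on RPL32 was not tested. The direction of each marker's line difference was the same under every scaling used.

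Over the 12 libraries the log2 CPM of PECAM1 and KDR had a Pearson r of 0.936. The points share their line, by which both genes separate, and 2603 of 12232 other genes had an r above 0.9 with PECAM1 and 1050 with KDR. The gene closest to PECAM1 was ENSCAFG00000011808 (r = 0.998) and the gene closest to KDR was ENSCAFG00000018735 (r = 0.993), for which the tables used here give no symbol. Among 15 genes with a symbol, B2M was closest to both (r = 0.935 and 0.763). VWF was left out of this ranking because of its low counts. Of 23 endothelial gene symbols considered, 20 had no identifier in the sources used here and were not analysed.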

How the data were processed

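Poly(A) RNA from 12 samples was sequenced by the authors as stranded libraries. Their reads were mapped by STAR against the CanFam3.1 build, and RSEM gave a value per Ensembl gene. Versions of both, the annotation release and the strand setting are not given in the sources used here. The authors deposited RSEM expected counts, not normalized, and TPM values, one table of each per cell line. 97.7% of the expected counts were whole, and they were rounded here.

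Counts were joined by gene identifier and tested in R 4.3.3 with edgeR 4.0.16 (filterByExpr, TMM, glmQLFit and glmQLFTest), with Benjamini-Hochberg adjustment over all genes tested and a threshold of 0.05. Glucose was tested within each line on its 6 libraries, and lines, the difference of responses and the average on all 12. Fold changes carry no prior count, and the standard error is the log2 change over the square root of F. log2 CPM used a prior count of 2. Alternatives used DESeq2 1.42.0 and limma 3.58.1, other scalings and filters, a replicate block and libraries left out. Scripts were tested on simulated data.

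Replicate numbers were not treated as pairs, since the correlations of deviations of same-numbered libraries ranged from -0.05 to 0.11. The members and lists were chosen with earlier results of these data known. Genes were named by the rule that the 3 markers, the reference genes and the genes most like each marker are described. One reference gene is not reported here by itself. No gene coordinates or sequences are given, because no identifier matched the reference table supplied.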

Additional observations from a re-analysis of the deposited data

How the results depend on the processing

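All 3 line differences kept their direction and call at both glucose levels in every alternative that gave a value. With each library left out they ranged from -1.18 to -1.14 (PECAM1), -0.58 to -0.50 (KDR) and -1.99 to -1.43 (VWF) at 25 mM, and from -1.22 to -1.13, -0.61 to -0.45 and -2.07 to -1.23 at 0 mM. VWF has no value in limma or, outside HU-HSA-2 alone, with at least 10 counts required in every library.

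KDR in HU-HSA-2 lost its call in limma on log2(TPM + 1) (-0.24, adjusted p = 0.124) and log2(TPM + 0.1) (-0.25, 0.136), and in 1 fit of all 12 libraries (-0.22). Averaged over lines it lost its call in the same limma fits (-0.26 and -0.27, adjusted p = 0.0559 and 0.0679). The plan named limma without saying whether a mean-variance trend was to be used, and the first fits had none. Trended fits were added after their results had been seen, and the choice matters: KDR averaged over lines was then called (adjusted p = 0.0385 and 0.0419 by limma), while KDR in HU-HSA-2 was still not called (-0.24 and -0.25, adjusted p = 0.0679 and 0.0703 by limma). PECAM1 averaged over lines gained a call when scaled by 6 reference genes (-0.21) and in DESeq2 (-0.11). The causes of these changes were not tested. Leaving out libraries gave -0.24 to -0.19 for KDR in HU-HSA-2, -0.13 to -0.090 for PECAM1 averaged over lines, -0.28 to -0.12 for KDR and -0.15 to -0.07 for PECAM1 in HU-HSA-3.

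VWF changed sign with libraries left out, ranging from -0.19 to 0.37 in HU-HSA-2, from -0.27 to 0.57 in HU-HSA-3 and from -0.059 to 0.36 on average. With libraries left out, the difference between glucose responses ranged from -0.057 to 0.034 for PECAM1, -0.067 to 0.10 for KDR and -0.43 to 0.42 for VWF. For KDR it was also -0.061 and -0.030 when scaled by 6 and by 5 reference genes, -0.0069 with the stricter count filter, and -0.044 and -0.048 in limma at the larger and smaller pseudocount, with or without trend. With each library's length trend removed it was 0.0081 for PECAM1 and 0.12 for VWF. The length trend and the 5 reference genes without B2M were likewise chosen after seeing the data.

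With the replicate number as a replicate block, no call of a marker changed: KDR in HU-HSA-2 was -0.22 (edgeR adjusted p = 0.0239) and KDR in HU-HSA-3 was -0.22 (edgeR adjusted p = 0.124).

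Mean levels moved by more than 1 SD with upper-quartile scaling for PECAM1 at 25 mM (2258 CPM in HU-HSA-2, against 945 for HU-HSA-3) and with 6 reference genes for PECAM1 (2311 in HU-HSA-2 with glucose, 838 in HU-HSA-3 without) and KDR (287 in HU-HSA-2 with glucose). The deposited TPM is another unit, with means of 1116, 1023, 432 and 379 TPM for PECAM1. The KDR means were 74.3, 62.7, 43.6 and 35.8 TPM, and the VWF means 0.477, 0.520, 0.170 and 0.210 TPM.

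The number of genes called for glucose in HU-HSA-2 went from 1583 to 513 and 437 in limma (870 and 845 with trend). In HU-HSA-3 it went from 626 to 297 and 254 (384 and 366 with trend), 1043 with 6 reference genes, 1034 without the length trend and 1153 in the fit of 12 libraries. For the difference of responses it went from 579 to 319 and 370 (trended) at the smaller pseudocount, and averaged over lines from 1718 to 2605 with 6 reference genes. Leaving out libraries gave 907 to 1582 in HU-HSA-2, whereas HU-HSA-3 gave 231 to 2027, the highest without 0 mM replicate 1.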
